A study of Mus musculus with 12 samples.

Results

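Albumin and the plasma carrier proteins were followed as the transcripts of 10 listed genes, namely Alb, Ttr, Hpx, Ahsg, Fetub, Trf, Rbp4, Gc, Ambp and Afm. The genes were chosen by name as abundant secreted products of liver. Of the 10, 8 had a probe set annotated to that gene alone, and they were read by 12 of the 45037 probe sets of the array, or 8 of 18193 genes. Gc is absent from the probe annotation used here, and the probe set given for Trf is also given for Srprb, so that no signal of either gene is analysed here.

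RNA was measured on 12 Affymetrix Mouse Genome arrays, 1 for each of 4 tissues (liver, lung, heart and thymus) and 3 genotypes. The genotypes were p53−/−, mice without the tumour suppressor p53, p66−/−, mice without the redox protein p66 that generates reactive oxygen species, and WT. All mice were of the Sv/129 strain and 2 months old, no treatment is given, and each array held a pool of RNA from 4 mice. The deleted transcripts themselves were not analysed here. With 1 pool a group there is no replicate within a tissue, and nothing in the labels says whether the 4 tissues of a genotype came from the same mice. The study asked which transcripts depend on p53 and p66 in tissues under physiological conditions.

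Plasma carriers are made by hepatocytes, secreted, and reach every perfused tissue as protein through the blood, while their transcripts stay in the cells that make them. Albumin binds fatty acids and many drugs, and the other carriers each serve a ligand, such as thyroxine and retinol for transthyretin and retinol-binding protein, haem for hemopexin, calcium phosphate for fetuin-A and iron for transferrin. Transcription of such genes in liver rests on combinations of hepatocyte factors, among them HNF1 and C/EBP, that act at short promoters and at enhancers. A small level of these transcripts on an array of another tissue can therefore be read against the large level in liver.

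The start regions of 4 members are shown. Alb and Hpx had some of the widest differences between the lung arrays, Afm the narrowest and Rbp4 the next narrowest. RefSeq promoter windows of GRCm38.p6, running from 250 bases before to 50 after the annotated start, were found for 8 of the 10 genes, some with 2 starts (10 windows), and Ttr and Trf had none in the table used. Capitals mark exact matches on either strand to GTTAAT, a part of the recognition motif of HNF1, to CCAAT, or to TATAAA, the TATA box. The windows of Alb (chr5:90460620-90460919, plus strand), Afm (chr5:90518699-90518998, plus strand), Hpx (chr7:105600067-105600366, minus strand) and Rbp4 (chr19:38124762-38125061, minus strand) read 5′ to 3′ as follows.
Alb: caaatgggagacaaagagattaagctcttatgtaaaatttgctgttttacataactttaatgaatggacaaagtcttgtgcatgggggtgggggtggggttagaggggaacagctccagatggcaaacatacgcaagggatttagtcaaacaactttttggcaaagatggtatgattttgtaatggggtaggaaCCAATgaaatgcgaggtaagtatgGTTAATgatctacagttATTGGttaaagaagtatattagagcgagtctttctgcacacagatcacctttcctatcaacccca
Afm: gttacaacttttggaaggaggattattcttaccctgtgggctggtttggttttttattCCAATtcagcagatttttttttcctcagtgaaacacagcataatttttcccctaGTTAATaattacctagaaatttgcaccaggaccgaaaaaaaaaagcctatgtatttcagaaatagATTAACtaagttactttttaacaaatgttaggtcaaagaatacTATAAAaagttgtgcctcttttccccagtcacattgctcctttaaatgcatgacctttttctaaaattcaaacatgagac
Hpx: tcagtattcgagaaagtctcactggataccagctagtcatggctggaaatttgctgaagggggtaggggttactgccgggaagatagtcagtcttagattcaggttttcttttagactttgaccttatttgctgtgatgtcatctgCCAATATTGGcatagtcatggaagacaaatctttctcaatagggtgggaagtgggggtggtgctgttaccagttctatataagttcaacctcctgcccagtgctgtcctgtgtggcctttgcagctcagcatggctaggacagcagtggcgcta
Rbp4: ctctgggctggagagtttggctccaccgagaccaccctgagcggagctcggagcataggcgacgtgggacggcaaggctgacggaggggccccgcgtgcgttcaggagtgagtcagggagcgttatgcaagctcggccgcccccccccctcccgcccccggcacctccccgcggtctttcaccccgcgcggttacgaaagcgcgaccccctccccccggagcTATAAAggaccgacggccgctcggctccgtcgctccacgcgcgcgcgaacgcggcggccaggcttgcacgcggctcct

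GTTAAT was present in the windows of 3 of the 8 genes, Alb, Afm and Gc, against 7.10% of 32851 promoters of the table. These 3 genes lie in the same stretch of chromosome 5. In Alb the match began 32 bases before the start, in Afm the matches began 138 and 73 bases before it, and in Gc 52 bases before it. CCAAT was found in at least 1 window of 8 of the 8 genes, against 37.4% of promoters, and in Hpx a match on each strand abuts the other. TATAAA was found for 3 of 8, Afm, Fetub and Rbp4, about 30 bases before the start, against 13.6% of promoters. A match is a description of these letters in this window and not a binding site.

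Markers of each labelled tissue were high on its own arrays, with a median log2 signal over the lung epithelium list of 13.5 to 13.8 in lung, over the cardiomyocyte list of 14.1 to 14.3 in heart, and over the hepatocyte enzymes of 12.9 to 13.1 in liver. The WT thymus array stood apart. The 10 salivary gland markers had medians of 5.28 in p53−/− thymus and 5.06 in p66−/− thymus, against 14.4 there, and the thymocyte markers had medians of 11.1 and 11.2, against 9.69. The WT heart array also carried the salivary gland markers, at a median of 8.59, and the counts from fits across arrays are given with and without these arrays. Differences from WT within heart or thymus rest on the only WT array of the tissue and can be given only with it. RNA quality signals differed as well. On the lung arrays 18S rRNA probe sets averaged 9.79 in p53−/−, 5.94 in p66−/− and 5.52 in WT. The 3′ over 5′ difference of Gapdh was 0.66, 1.32 and 2.29 in the same order. On the thymus arrays the 18S rRNA probe sets averaged 10.30 in p53−/−, 5.97 in p66−/− and 10.86 in WT. Array medians over all probe sets lay between 6.23 and 6.42. The cardiomyocyte markers had medians of 5.74 to 5.91 on the liver arrays, so that a log2 signal near 6 need not mean that a transcript was present.

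In liver the carriers were at the top of the range and hardly differed between genotypes. Values are log2 signals, in the order p53−/−, p66−/− and WT. Alb, the main protein of plasma, read 14.71, 14.74 and 14.79, and Ttr, which carries thyroxine and the retinol-binding protein, read 14.58, 14.49 and 14.40. The 3 arrays of each gene lay within 0.4 of each other. Hpx, which binds free haem, read 14.09, 14.22 and 14.42, and Ahsg, fetuin-A, read 14.15, 14.04 and 14.11. Rbp4, the retinol carrier, read 14.06, 14.16 and 14.12, and Ambp, the precursor of alpha-1-microglobulin and bikunin, read 13.65, 13.74 and 13.71. These levels are those of different probe sets and are not ranked against each other. Fetub, a fetuin that inhibits proteases, read 12.18, 12.02 and 12.21, and Afm, afamin, a vitamin E-binding member of the albumin family, read 11.71, 11.85 and 11.92. No member differed 2-fold or more from WT in liver in either knock-out, beside 0.511% of all genes for p53−/− (0.418% lower and 0.0934% higher) and 0.385% for p66−/− (0.302% lower and 0.0824% higher), and the member furthest from WT was Hpx at −0.32 in p53−/− and −0.20 in p66−/−.

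**Figure D1:**
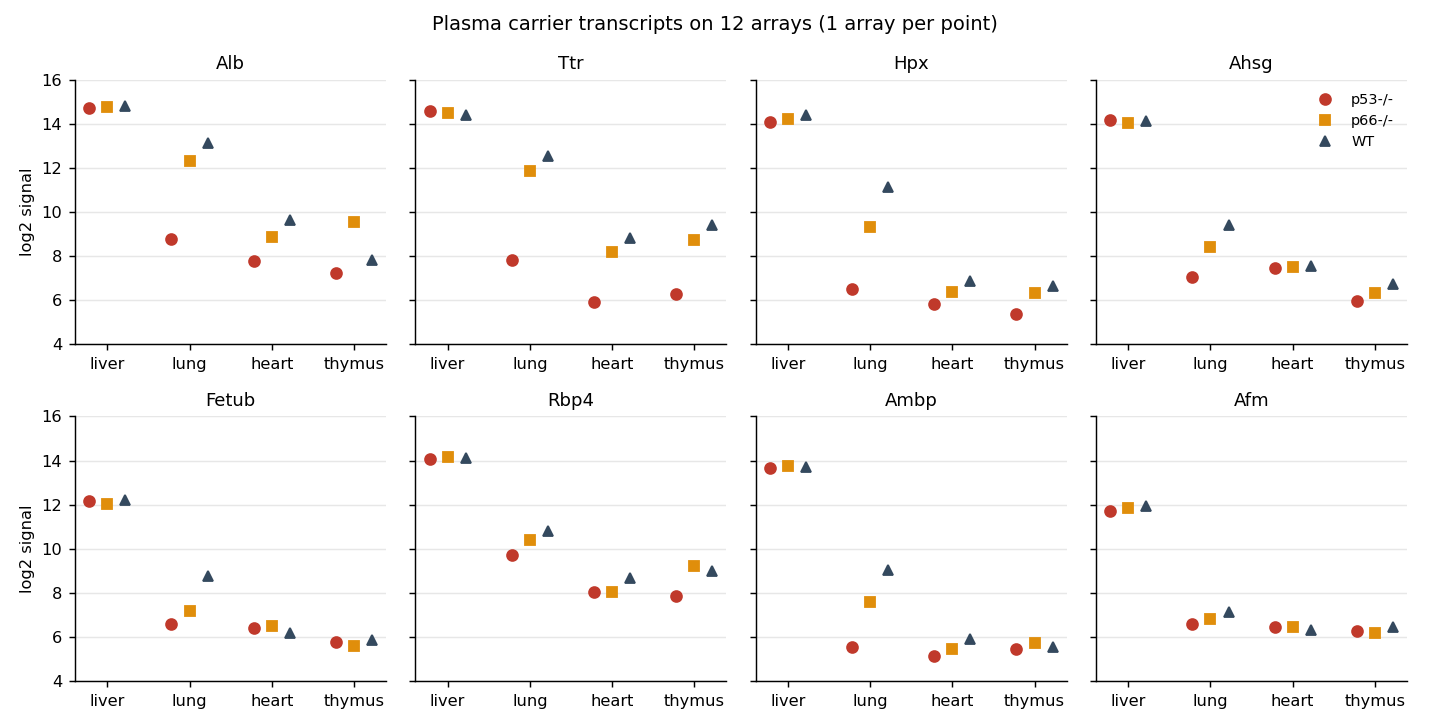
Log2 signal of the 8 measured carriers (y axis) on the liver, lung, heart and thymus arrays (x axis), with 1 array per point and p53−/− (circles), p66−/− (squares) and WT (triangles) from left to right. The liver points of each gene nearly coincide, while in lung p53−/− is the lowest point and WT the highest for each gene, at 8.79 and 13.13 for Alb.

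On lung arrays the same transcripts were spread widely by genotype. Alb read 8.79 in p53−/− lung and 12.30 in p66−/− lung, against 13.13 in WT lung, and Ttr read 7.81 and 11.87, against 12.55. Both were low in p53−/− lung alone. Hpx read 6.48 and 9.31, against 11.12 in WT lung, and Ambp read 5.55 and 7.57, against 9.05, so that p66−/− lung lay between the other arrays. Ahsg gave 7.06 and 8.41, against 9.40, and Fetub gave 6.58 and 7.15, against 8.75. Rbp4, which adipocytes also make, gave 9.71 and 10.41, against 10.79, a narrower span. Afm, at 6.56 and 6.80 against 7.11 in WT lung, lay within 1 of the array medians.

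The order of the lung arrays was the same for the 8 genes, with p53−/− lowest and WT highest. Of all genes, 43.3% were below WT in p53−/− lung and 48.5% in p66−/− lung. The share of all genes with the full order is not given here. In p53−/− lung 7 of 8 carriers were 2-fold or more below WT, where 4.14% of all genes were, and the exception was Afm at −0.55 on the log2 scale. The median over the 8 was −2.92, while that over all genes was 0.07. Ttr was 26.8-fold lower, Hpx 24.9-fold, Alb 20.4-fold and Ambp 11.3-fold, and Ahsg, Fetub and Rbp4 were 5.06-fold, 4.49-fold and 2.11-fold lower. In p66−/− lung 3 of 8, Hpx, Fetub and Ambp, were 2-fold or more below WT (3.51-fold, 3.03-fold and 2.81-fold), where 0.313% of all genes were, with a median of −0.91. Both sets of differences share the WT lung array. With 1 array a group these differences have no test, and in bulk RNA fewer cells that make a transcript and less of it per cell cannot be told apart.

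**Figure D2:**
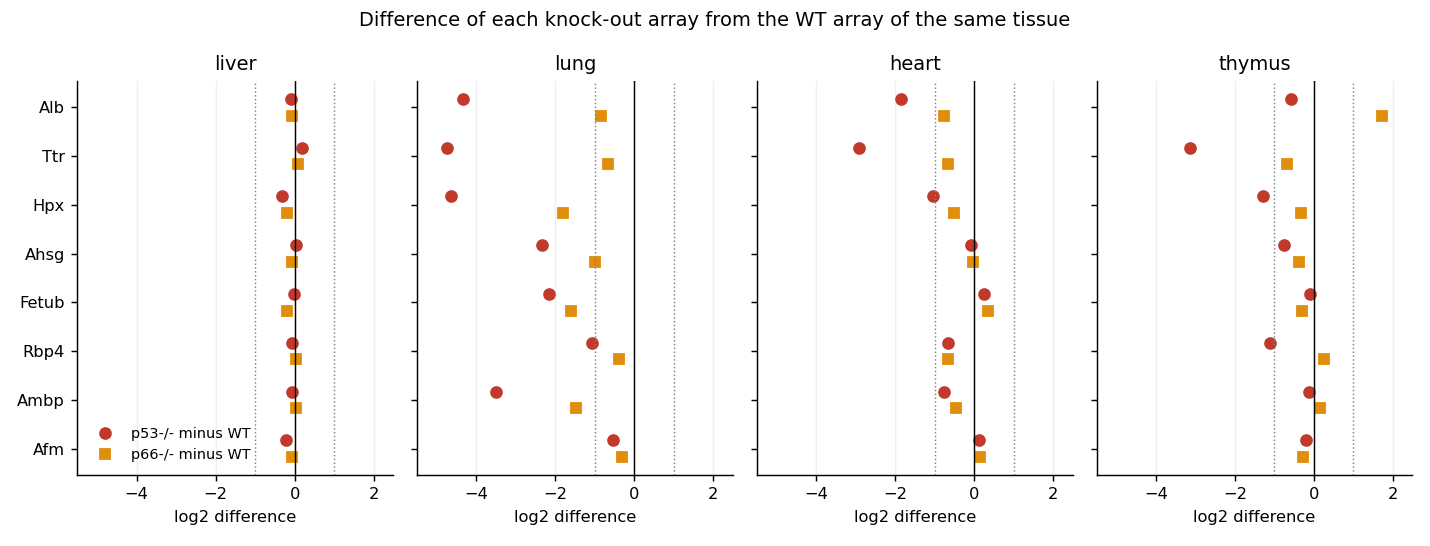
Log2 difference of each knock-out array from the WT array of the same tissue (x axis) for the 8 carriers (y axis), with p53−/− as circles and p66−/− as squares, and dotted lines at 2-fold. Differences in liver lie within 0.4 of 0, while those of p53−/− lung reach −4.74.

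The members did not keep a common ratio between lung arrays. As a share of the WT lung signal, p53−/− lung had 3.73% for Ttr, 4.01% for Hpx, 4.91% for Alb and 8.82% for Ambp, against 47.4% for Rbp4 and 68.5% for Afm. In p66−/− lung the shares were 62.5% for Ttr and 56.2% for Alb, against 28.5% for Hpx and 35.6% for Ambp. Alb and Ttr thus kept more of the WT signal in p66−/− lung than Hpx and Ambp did, although the 4 genes had shares of 3.73% to 8.82% in p53−/− lung. A probe set reads a floor without its transcript, so the lowest of the 9 non-liver signals was subtracted on the linear scale. The excess in p53−/− lung was then 2.75% of that in WT for Ttr, 2.20% for Hpx, 3.28% for Alb, 2.34% for Ambp, 11.7% for Ahsg and 12.6% for Fetub, against 39.4% for Rbp4 and 33.7% for Afm. By both measures Rbp4 and Afm kept a larger part of their WT lung signal than the other 6 members, and Afm had little signal above its floor on any lung array.

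Heart and thymus arrays held less. In heart, Alb read 7.77 in p53−/− and 8.86 in p66−/−, against 9.62 in WT, and Ttr read 5.92 and 8.16, against 8.83. These were the widest gaps in heart. Hpx gave 5.84 and 6.37, against 6.89, and Rbp4 gave 8.03 and 8.04, against 8.69. Ambp gave 5.14 and 5.45, against 5.89 in WT heart. The other members barely moved, with Ahsg between 7.47 and 7.53 and Afm between 6.32 and 6.46 over the 3 heart arrays, and Fetub 0.24 above WT in p53−/− and 0.35 above it in p66−/−. In p53−/− heart 3 of 8, Alb, Ttr and Hpx, were 2-fold or more below WT, where 2.08% of all genes were, and in p66−/− heart 0 of 8 were, where 1.67% of all genes were. The medians were −0.71 and −0.48.

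In thymus p53−/− was again below WT for 8 of 8 members, where 50.6% of all genes were, but by only −0.10 for Fetub, −0.12 for Ambp and −0.19 for Afm. In p66−/− thymus, where 51.7% of all genes were below WT, Alb, Rbp4 and Ambp were above it. Alb read 7.24 in p53−/− thymus and 9.56 in p66−/− thymus, against 7.83 in WT thymus, so that p66−/− was the highest of the 3. Ttr read 6.28 and 8.75, against 9.43, and Rbp4 read 7.86 and 9.24, against 8.98. Hpx read 5.37 and 6.33, against 6.66, and Ahsg 5.96 and 6.33, against 6.72. Fetub, Ambp and Afm lay between 5.44 and 6.44 on the 3 arrays. In p53−/− thymus 3 of 8, Ttr, Hpx and Rbp4, were 2-fold or more below WT, where 4.81% of all genes were, with a median of −0.67. Markers of cardiomyocytes differed on the same arrays, with 8 of 10 of them 2-fold or more below WT in p53−/− thymus. In p66−/− thymus 2 of them were 2-fold or more below WT and 2 above, from −3.29 for Myl2 to 2.54 for Nppa. The median signal of the cardiomyocyte markers was 6.29 in p53−/− thymus (4.89 to 10.18) and 9.0 in p66−/− thymus (4.92 to 11.75). It was 8.93 in WT thymus (5.34 to 10.04). The heart myosin gene Myh6 read 5.76 and 9.21, against 9.43. In p66−/− thymus 0 of 8 carriers were 2-fold lower, where 4.78% of all genes were. Alb, 1 of 8, was 3.33-fold higher, where 12.7% of all genes were 2-fold or more higher. WT thymus is the array with the salivary gland markers, the lung epithelium gene Scgb1a1 read 13.22 on p66−/− thymus and 7.13 on p53−/− thymus, against 11.87 on WT thymus, and the part of RNA of other tissues in the thymus differences was not tested.

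Ttr, with 4 probe sets, shows how far a level outside liver depends on the probe set. In liver they read 13.97 to 14.58 over the 3 arrays. In heart, the probe set 1451580_a_at gave 8.19 in p53−/− and 8.08 in p66−/−, against 8.15 in WT, while 1455913_x_at gave 4.67 and 7.06, against 8.10. In thymus 1459737_s_at gave 5.12 and 6.94, against 6.85, so that p66−/− was not below WT there. In lung the p53−/− difference was −2.28 for 1451580_a_at and −4.74 to −5.97 for the other 3, all 2-fold or more below WT. An _x_at or _s_at suffix marks probe sets whose probes can match further transcripts. The second probe set of Afm, 1427561_a_at, read 10.95 to 11.08 in liver and 5.98 to 7.03 elsewhere, and its p53−/− difference in lung was −0.32.

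**Figure D3:**
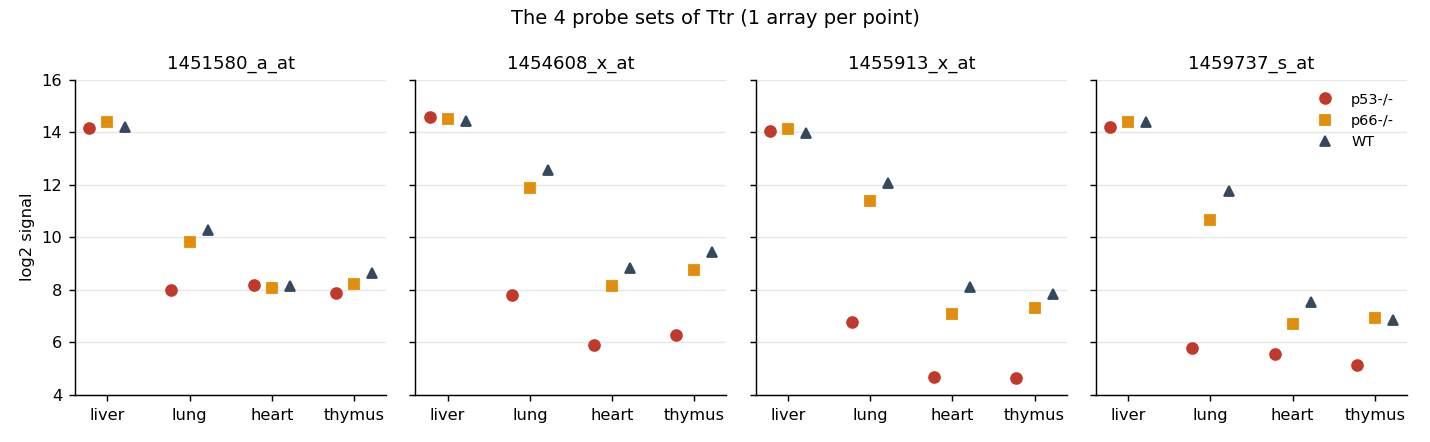
Log2 signal (y axis) of the 4 Ttr probe sets on the arrays of 4 tissues (x axis), 1 array per point, with p53−/−, p66−/− and WT from left to right. The p53−/− lung point is the lowest lung point on each probe set, while on 1451580_a_at the heart points lie within 0.2 of each other.

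Across the 4 tissues, the mean differences of p53−/− from WT were below 0 for the 8 members but did not pass the test. The median of that difference over all genes was 0.041. In limma fitted to the 12 arrays with tissue and genotype as terms, adjusted over all genes, 0 of 8 were called lower in p53−/−, where 0.0055% of all genes were. An unadjusted p under 0.05 was found for 6 of 8, beside 1873 of 18193 genes in either direction. Ttr differed by −2.66 (SE 0.61, limma adjusted p = 0.26), Hpx by −1.82 (SE 0.54, adjusted p = 0.33) and Alb by −1.72 (SE 0.61, adjusted p = 0.40). Ttr was below WT in 3 of 4 tissues and the other pair in 4 of 4. Without the WT thymus array Alb (−2.19, adjusted p = 0.043) and Ttr (−2.54, adjusted p = 0.041) passed, so that 2 of 8 were called, and without the WT heart array as well 0 of 8 were. In p66−/− 0 of 8 were called lower, where 0% of all genes were. There 0 of 8 had an unadjusted p under 0.05, beside 717 of 18193 genes. Estimates for p66−/− ran from −0.72 for Hpx to 0.02 for Alb. The fit uses the tissues as the replicates of a genotype, so that its error holds every effect that differs between tissues.

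The difference between tissues was far larger. Liver exceeded the mean of lung, heart and thymus for 8 of 8 members, where 14.3% of all genes were called higher, from 5.03 (SE 0.21, limma adjusted p = 2.4e-08) for Rbp4 to 7.55 (SE 0.43, adjusted p = 2.6e-07) for Ambp. In each gene the lowest liver array lay above the highest array of the other tissues, by 1.57 for Alb, where WT lung was that array, and by 4.64 for Ahsg. A gap of at least 1 was also found for 700 further genes of the 18193, so it is not particular to the members. The count was 8 of 8 too without the WT thymus array and without the WT heart array as well.

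Among the other tissues lung held the most. Lung exceeded heart for 6 of 8 members, where 20.4% of all genes were called higher, with the widest differences for Ttr (3.11, SE 0.70, limma adjusted p = 0.0069) and Alb (2.65, SE 0.70, adjusted p = 0.015). The 2 not called were Ahsg (0.79, adjusted p = 0.11) and Afm (0.42, adjusted p = 0.057). Lung exceeded thymus for 8 of 8, where 15.3% of all genes were called higher. The differences ran from 0.54 (SE 0.16, limma adjusted p = 0.028) for Afm to 3.20 (SE 0.70, adjusted p = 0.0069) for Alb. Not every probe set gave the same. The second one of Afm, 1427561_a_at, gave 0.04 against thymus (limma adjusted p = 0.93) and −0.35 against heart (adjusted p = 0.24). The Ttr probe set 1451580_a_at gave 1.12 against thymus (limma adjusted p = 0.067). With all probe sets of a gene averaged, Afm was not called against thymus. Without the p66−/− arrays 1 of 8, Rbp4, was called in either comparison, in a fit with fewer arrays and with differences of like size, such as 2.26 for Alb (limma adjusted p = 0.16) and 2.81 for Ttr (adjusted p = 0.11) against heart and 3.43 for Alb (adjusted p = 0.055) against thymus. Without the WT thymus array 7 of 8 were called against heart and 8 of 8 against thymus, and without the WT heart array as well 5 of 8 and 7 of 8. The lung arrays of Rbp4, at 9.71 to 10.79, did not overlap those of heart, at 8.03 to 8.69, or thymus, at 7.86 to 9.24. For Alb they did, since p53−/− lung at 8.79 lay below WT heart at 9.62. Heart exceeded thymus for 1 of 8, Ahsg (1.17, SE 0.37, adjusted p = 0.032), where 15.5% of all genes were called higher, and its heart arrays, at 7.47 to 7.53, did not overlap the thymus arrays, at 5.96 to 6.72. That call was lost without the p53−/− arrays (0.99, limma adjusted p = 0.069) and without the p66−/− arrays (1.16, adjusted p = 0.23), where the difference was of like size, and was kept without the WT thymus array and without the WT heart array as well.

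**Figure D4:**
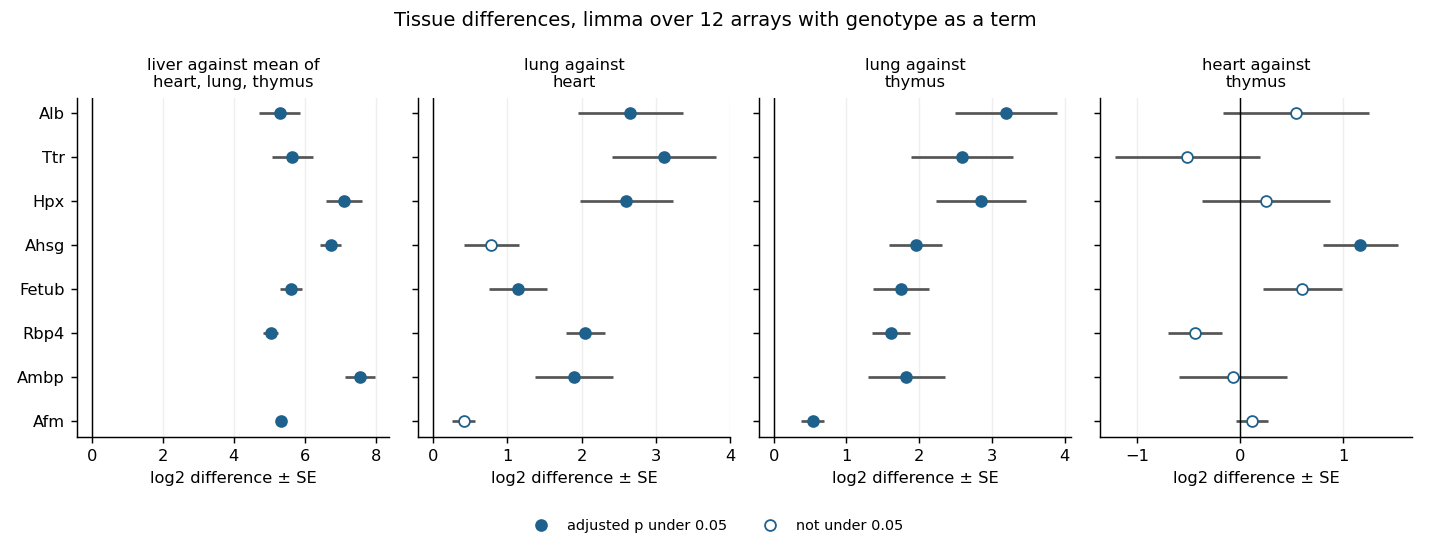
Log2 differences between tissues with their standard errors (x axis) for the 8 carriers (y axis), from limma over 12 arrays with genotype as a term, where filled points have an adjusted p under 0.05. Liver lies 5.03 to 7.55 above the mean of the other tissues, and lung exceeds thymus for 8 of 8.

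Within a probe set the signal outside liver can be set against the liver array of the same genotype. In lung, Alb stood at 1.65% of its liver signal in p53−/− and 18.4% in p66−/−, against 31.6% in WT. Ttr stood at 0.92% and 16.3%, against 27.7%, on 1454608_x_at, the probe set that stood for the gene. Its share differed between probe sets. In WT lung it was 6.59% on 1451580_a_at, 16.3% on 1459737_s_at and 26.4% on 1455913_x_at. Over all Ttr probe sets it ran from 4.28% to 16.3% in p66−/− lung and from 0.29% to 1.40% in p53−/− lung. Hpx stood at 0.51% and 3.33%, against 10.2%. Rbp4 had a narrower span, at 4.90% and 7.42%, against 9.92% in WT. Ambp reached 0.36% and 1.39%, against 3.97%, and Ahsg 0.74% and 2.01%, against 3.82%. Afm, near its floor, had the lowest share in WT lung, and Ambp, also near its floor, the lowest in p53−/− lung. How far the members' shares lay apart depended on that floor. With it subtracted, Rbp4 stood highest in p53−/− lung at 3.59% and Ambp lowest at 0.091%, against Alb highest in WT lung at 31.3% and Afm lowest at 1.73%. In heart the median share over the 8 members was 0.90% in p53−/− and 1.34% in p66−/−, against 1.78% in WT, and in thymus it was 0.45% and 1.51%, against 1.02%.

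Members with more signal in liver had more on the WT and p66−/− lung arrays, while the relation was weaker on the other arrays and least in p53−/− heart and thymus. Over the 8 members Pearson's r between the log2 signal in lung and in liver of the same genotype was 0.48 in p53−/− and 0.82 in p66−/−, against 0.86 in WT (Spearman's rho 0.52 and 0.98, against 0.98). The slope was 1.58 in p66−/− and 1.65 in WT lung, so that a 2-fold higher liver signal went with more than a 2-fold higher lung signal. In heart r was 0.24 and 0.57, against 0.71 in WT, and in thymus 0.28 and 0.65, against 0.54. With all 12 member probe sets r was 0.42 and 0.85 in lung, against 0.89 in WT. It was then 0.004 and 0.48 in heart, against 0.69, and 0.09 and 0.64 in thymus, against 0.47. Without Rbp4 the lung values, with 1 probe set a gene, were 0.53 and 0.82, against 0.86. These are descriptions across 12 probe sets or fewer that differ in affinity and share an array. Afm and Fetub, with the lowest liver signals, set much of the slope.

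**Figure D5:**
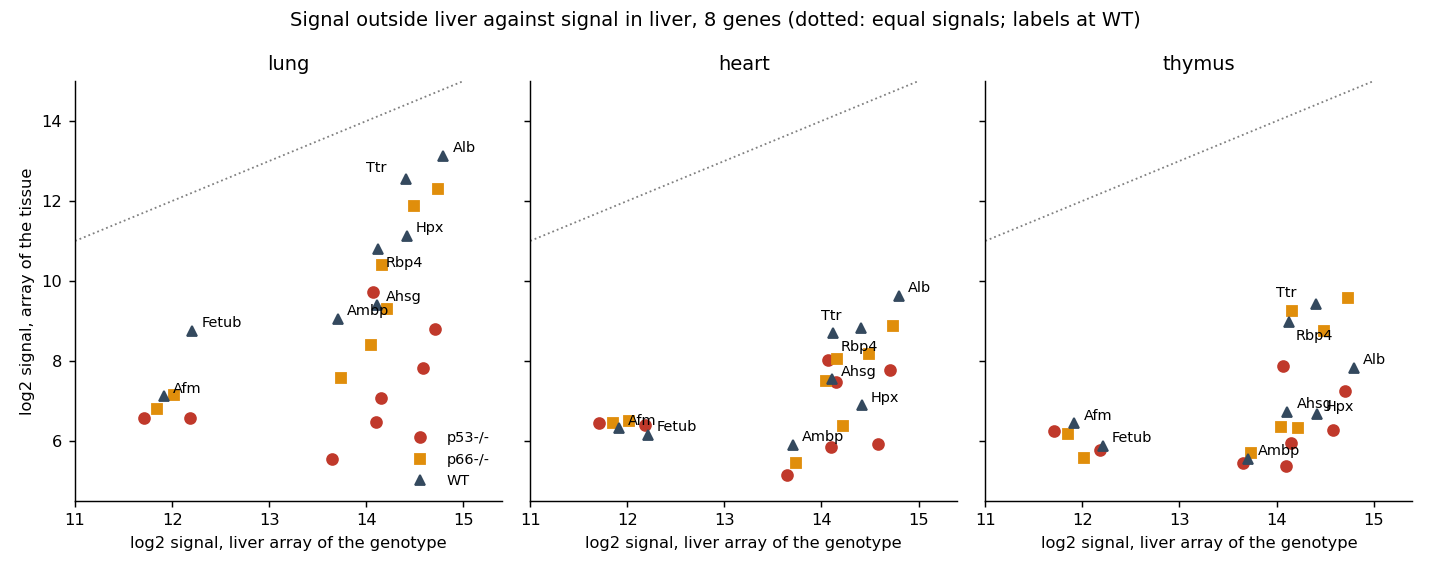
Log2 signal of the 8 carriers on the lung, heart or thymus array (y axis) against that on the liver array of the same genotype (x axis), with p53−/− as circles, p66−/− as squares and WT as triangles, which carry the gene names, and a dotted line at equal signals. In lung the WT points climb with the liver signal (r = 0.86), while the p53−/− points lie low at each liver level but that of Rbp4 at 9.71.

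Other genes of liver with more signal there also had more in lung, with a shallower slope than the members but over a wider range of liver signals. The 8 members and 700 further genes had a liver signal at least 1 log2 unit above every array of the other tissues. Over the 700, r between the lung and the liver signal was 0.46 in p53−/− and 0.62 in p66−/−, against 0.70 in WT. The slope was 0.43 and 0.61, against 0.68 in WT. Over the 700 as a whole a 2-fold higher liver signal thus went with less than a 2-fold higher lung signal. Of them, 247 lay under a liver signal of 10 and 299 between 10 and 12, with median WT lung signals of 6.30 and 7.72. The medians were 8.11 between 12 and 13, 9.06 between 13 and 14 and 11.15 above 14. The slopes of the 700 and of the members thus cover unlike ranges. Lung differences of the 700 from WT in p53−/− grew with the liver level. For the 247 genes under a liver signal of 10 the medians were −0.02 in p53−/− and −0.07 in p66−/−. They were −0.76 and −0.35 for the 88 genes between 12 and 13, and −1.67 and −0.74 for the 52 genes between 13 and 14. Above 14, a bin of only 14 genes, they were −2.67 and −0.49. These genes were selected on the same arrays, which bounds their signal outside liver. The members' own medians, −2.92 and −0.91, belong to genes whose liver signals lie between 11.8 and 14.7. In thymus the 52 genes between 13 and 14 had medians of −0.47 and −0.11, and in heart −0.32 and −0.31. For the 14 genes above 14 they were −0.33 and 0.72 in thymus, so that p66−/− was on the other side of WT, and −0.72 and −0.42 in heart.

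Hepatocyte enzymes, whose proteins stay in the cell, were looked at on the same arrays. Of 17 measured, 12 were 2-fold or more below WT in p53−/− lung (median −1.51), where 4.14% of all genes were, and 1 in p66−/− lung (median −0.73), where 0.313% were. Cyp2c29, a drug-metabolizing cytochrome P450, read 6.33 and 9.61, against 10.78 in WT lung, and Cyp3a11, another one, 6.03 and 8.49, against 9.11. Tat, the tyrosine aminotransferase, and G6pc, the glucose-6-phosphatase, differed least in p53−/−, and Tat was lowest in p66−/− lung, at 6.87 beside 7.07 in p53−/− lung. The enzyme signals ranged from 4.71 to 9.26 on the p53−/− lung array and 5.17 to 10.67 on p66−/−, against 5.98 to 11.05 on WT. In thymus 4 of 17 were 2-fold or more below WT in p53−/− and 3 in p66−/− (medians −0.78 and −0.42), where 4.81% and 4.78% of all genes were. In heart 3 and 1 were (medians −0.18 and 0.16), where 2.08% and 1.67% of all genes were. The part of liver RNA in the signal outside liver, and that of 18S rRNA and of the Gapdh 3′ over 5′ difference, was not tested.

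Adipocyte markers took the other direction from Rbp4 in lung, where their median difference was 0.66 in p53−/− and 0.29 in p66−/− over 8 genes. The adipokine Adipoq read 10.61 and 11.08, against 9.43 in WT lung, while Rbp4 was lowest in p53−/−. In thymus the median difference of the list was −0.63 in p53−/− and 0.09 in p66−/−, and in heart it was −0.23 and −0.78. Adipoq read 9.83 and 11.40 in thymus, against 10.94, which is the order of Rbp4 there. Fabp4, Cidec and Lipe had that order too, while Retn, Lep, Car3 and Pparg did not.

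Over the 9 arrays outside liver, the genes whose pattern was nearest the mean of the members were, among 10886 genes with a range of 1 or more, Akr1c6 (r = 0.99), Cyp2c29 (0.99), Cyp3a11 (0.99), Plg (0.98), Ptgs2 (0.98), Bhmt (0.98), Serpina1b (0.98) and Ces1f (0.98). For Alb alone they were Cyp3a11, Fgb and Bicd2, and for Rbp4 Rcn1, Frmd4b and Sc5d, each at 0.98 or 0.99. Rbp4 shared no gene with Alb among these, although r between Rbp4 and Alb was 0.87. Between the members themselves r ran from 0.67, for Ahsg with Rbp4, to 0.98, for Hpx with Ambp.

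Further plasma carriers were looked at as a list of 25, of which 24 were measured. Liver exceeded the other tissues for 21 of them (limma adjusted p under 0.05), where 14.3% of all genes were called higher. The phospholipid transfer protein Pltp, 1 of 24, was called lower in liver, where 3547 of 18193 genes were. In lung 6 of 24 were 2-fold or more below WT in p53−/− (median −0.64), where 4.14% of all genes were, and 2 in p66−/− (median −0.39), where 0.313% were. Itih3, a heavy chain that binds bikunin, read 5.26 and 7.12, against 8.17, and Apoh, a phospholipid-binding glycoprotein, read 7.14 and 9.26, against 9.84. Both followed the order of the members. Shbg, the carrier of sex steroids, at 6.64 and 5.96 against 5.89, did not. The 16 receptors and uptake proteins of the carriers had medians between −0.28 and 0.05 in the 8 within-tissue comparisons. Of the 16, 7 were called higher in liver, beside the same 14.3% of all genes, and 4 lower, beside the same 3547 of 18193 genes. Furthest above were Asgr1 and Asgr2, the chains of the asialoglycoprotein receptor of hepatocytes.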

How the data were processed

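Total RNA from liver, lung, heart and thymus, pooled from 4 mice per genotype, was labelled and hybridized to Affymetrix Mouse Genome arrays, 1 array for each of 12 groups, taken from the sample labels. Signals were deposited on the log2 scale, after the authors had run RMA (background correction, quantile normalization and median polish) in Partek 6.5. No raw intensity was used here, so signals near the floor are compressed and the number of arrays limits the precision.

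Of 45037 probe sets without controls, 34945 carried 1 gene symbol, and the brightest probe set by mean signal stood for each of 18193 genes. Differences from WT within a tissue were counted at 1 on the log2 scale (2-fold), with no test. Across tissues, limma 3.58.1 in R 4.3.3 was fitted to 12 arrays with tissue and genotype (6 residual degrees of freedom, two-sided, Benjamini-Hochberg over all genes, threshold 0.05) and was tested on simulated data. The arrays of a genotype were treated as independent. Other steps used Python 3.11.15, pandas 2.3.3 and scipy 1.17.1.

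The members, lists, tests and alternatives were chosen with earlier results of these data known. All members with every probe set were named, with the genes of widest and narrowest difference from each list, and by likeness the 8 genes nearest the members' mean and the 3 nearest Alb and Rbp4. The alternatives were other normalizations, filters, thresholds and probe set rules, an intensity trend, a random block, no genotype term, a subtracted floor, and each tissue or genotype left out. Leaving out the WT thymus array, with or without the WT heart array, was chosen after seeing the data.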

Additional observations from a re-analysis of the deposited data

Results flagged for a closer look

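Differences from WT of opposite sign in 2 tissues, at least 4-fold apart, were singled out, a limit set with the values known. None of these differences between tissues was tested, and each rests on 1 array a group. In p66−/−, Alb differed from WT by 1.74 on the log2 scale in thymus, against −0.83 in lung and −0.76 in heart. The WT thymus array in that first value is the one with the salivary gland markers. The 18S rRNA probe sets averaged 5.97 on the p66−/− thymus array, against 10.86 on WT thymus.

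In p53−/−, the difference of Ttr from WT was 0.18 in liver, against −4.74 in lung, −2.92 in heart and −3.15 in thymus. Ahsg differed by 0.039 in liver and by −2.34 in lung. Fetub differed by 0.24 in heart and by −2.17 in lung. The values in liver and heart above 0 are small beside those in lung.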

How the results depend on the processing

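The liver excess of 8 of 8 members held under all 12 alternatives run, and 0 of 8 were called for p66−/− under all 13. For p53−/− the count was 0 except 2 of 8 without the WT thymus array. Leaving out each genotype in turn gave 1 to 7 members called for lung against heart, 1 to 7 for lung against thymus and 0 to 2 for heart against thymus, and the last count was also 0 with array medians centred and 0 with no genotype term. The lowest lung counts came without p66−/−, and fewer arrays were then fitted.

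Within tissues, a 1.5-fold threshold in either direction gave 6 members in p66−/− lung, 5 in p53−/− heart, 3 in p66−/− heart, 5 in p53−/− thymus and 2 in p66−/− thymus. Those 2 were Alb, higher by 1.74 on the log2 scale, and Ttr, at −0.68, while the members in the other counts were lower than WT. The share of all genes past 1.5-fold is not given here. A 3-fold threshold gave 1 in p53−/− thymus, and repeated quantile normalization and cyclic loess each gave 2 in p66−/− thymus. With the floor subtracted, the median log2 level relative to liver, averaged over the 3 arrays, was −7.76 in heart and −9.33 in thymus, against −6.29 and −6.86 without it.

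Estimates that were not called turned sign in a few cases. Fetub for p53−/− against WT was 0.038 without lung, in a range of −0.76 to 0.038 with each tissue left out. Alb for p66−/− against WT was −0.022 with cyclic loess, −0.45 without the WT thymus array and −0.46 without the WT heart array as well, and ranged from −0.55 to 0.31 with each tissue left out. Alb for heart against thymus was −0.090 without the WT thymus array and −0.083 without the WT heart array as well, and ranged from −0.083 to 1.16 with each genotype left out. Ambp for heart against thymus was 0.022 with cyclic loess and ranged from −0.27 to 0.043 with each genotype left out. The cause was not tested. Of the remaining estimates for single members, 549 kept direction and side of the threshold, 25 lost it and 7 gained it.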

Other observations

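Of 14 acute phase genes, whose products liver secretes in inflammation, 5 were 2-fold or more below WT in p53−/− liver, where 0.418% of all genes were, and 6 in p66−/− liver, where 0.302% were. The medians over the 14 were −0.53 and −0.67, and 0 of 8 carriers were 2-fold below WT in either. Lcn2, the iron-siderophore binding lipocalin 2, read 6.91 and 6.55, against 12.53 in WT liver. In lung Saa1, serum amyloid A, read 4.62 in p53−/− and 5.07 in p66−/−, against 9.81 in WT, and in liver it read 10.38 and 9.62, against 14.41. Alb differed from WT by less than 0.1 in both liver comparisons. The knock-outs share the WT liver array, and nothing was tested within a tissue.

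Cd163, the macrophage receptor for haptoglobin and haemoglobin, was below WT on each of the 8 knock-out arrays. In lung it read 5.65 in p53−/− and 6.11 in p66−/−, against 6.68 in WT, and in liver 7.07 and 7.52, against 7.75. The estimates across tissues were −1.03 (SE 0.25, limma adjusted p = 0.27) for p53−/− and −0.80 (SE 0.25, not called) for p66−/−.

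Of 10 lung epithelium markers, 1 was 2-fold or more above WT in either knock-out liver, where 0.0934% of all genes were in p53−/− and 0.0824% in p66−/−, with medians over the 10 of 0.20 in p53−/− and 0.16 in p66−/−. That gene, Scgb1a1, the secretoglobin of club cells, read 8.91 in p53−/− liver and 9.11 in p66−/− liver, against 4.63 in WT liver.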
